A study of Mus musculus with 9 samples.

Results

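The genes described here encode 7 transient receptor potential (TRP) channels linked to the sensing of vanilloids, heat, cold and irritants: Trpv1, Trpv2, Trpv3, Trpv4, Trpv6, Trpa1 and Trpm8. They were chosen by gene symbol in the annotation of the array, which gave 1 probe for each gene, 7 of 26423 probes in all. The values are Cy5 intensities of total RNA on 9 one-colour arrays, 3 per group, from female BALB/c mice treated on the shaved back every day for 7 days. The vanillin group received imiquimod cream and 100 mg/kg of oral vanillin, the IMQ group received imiquimod alone, and the mock group received Vaseline. Imiquimod, an agonist of toll-like receptor 7, induces a psoriasis-like inflammation of mouse skin. All vanillin mice also carried imiquimod, no group with vanillin alone was analysed here, and an oral vehicle for the IMQ and mock mice is not given in the labels.

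TRP channels are cation channels that open on physical or chemical stimuli and let calcium into the cell. TRPV1 is the receptor of capsaicin, whose vanillyl ring is also the ring of vanillin, and together with TRPA1, the receptor of pungent irritants, it marks sensory neurons of pain and itch. TRPV3 and TRPV4 are warmth-sensitive channels of keratinocytes, TRPV6 is a calcium-selective channel of epithelia, TRPV2 is found in immune cells as well as in neurons, and TRPM8 is the receptor of menthol and cold. The cell bodies of the sensory neurons lie outside the skin, in ganglia.

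Trpv1, Trpv3 and Trpv6, the 3 genes that read lower in IMQ than in mock skin, are shown by their promoters, taken from RefSeq on the assembly GRCm38.p6, from 250 bases before to 50 bases after the start. Trpv1 and Trpv3 are neighbours on chromosome 11 with 0 annotated genes starting between them. The windows are chr11:73233899-73234198 on the plus strand for Trpv1, chr11:73267270-73267569 on the plus strand for Trpv3 and chr6:41636356-41636655 on the minus strand for Trpv6. Capitals mark matches, on either strand, to letters of AP-1 (TGANTCA), of STAT factors (TTCNNNGAA) or of the E-box (CACGTG).
Trpv1: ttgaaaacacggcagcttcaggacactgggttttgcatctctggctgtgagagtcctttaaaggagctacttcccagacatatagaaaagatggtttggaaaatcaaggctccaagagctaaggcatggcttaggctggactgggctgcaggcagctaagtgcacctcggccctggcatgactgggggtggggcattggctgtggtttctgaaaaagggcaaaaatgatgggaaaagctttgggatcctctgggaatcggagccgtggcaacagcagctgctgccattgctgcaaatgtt
Trpv3: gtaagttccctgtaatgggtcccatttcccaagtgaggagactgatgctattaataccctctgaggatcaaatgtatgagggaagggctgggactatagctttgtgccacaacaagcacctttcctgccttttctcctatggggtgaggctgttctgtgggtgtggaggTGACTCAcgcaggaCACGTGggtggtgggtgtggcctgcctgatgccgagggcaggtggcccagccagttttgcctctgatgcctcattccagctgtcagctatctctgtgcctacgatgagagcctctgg
Trpv6: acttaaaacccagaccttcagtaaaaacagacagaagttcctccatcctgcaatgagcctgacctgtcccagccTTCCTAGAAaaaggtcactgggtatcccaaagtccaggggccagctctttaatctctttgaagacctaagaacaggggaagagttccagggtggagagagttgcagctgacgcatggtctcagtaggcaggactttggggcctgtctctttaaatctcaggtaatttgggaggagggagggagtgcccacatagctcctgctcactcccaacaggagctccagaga
The Trpv3 window held TGACTCA, an AP-1 match that starts 81 bases before the gene's start, and a separate E-box. The Trpv6 window held TTCCTAGAA, a match to the STAT letters, and the Trpv1 window held none of the 3 motifs. Among all 32851 promoter windows of this length, 7.81% held the AP-1 letters, 8.3% the STAT letters and 7.15% the E-box. Windows were found for 6 of the 7 genes. Those of Trpv2 and Trpv4 held no match, and that of Trpm8 held the STAT match TTCAAAGAA. These matches describe letters only, and no binding was measured.

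Per the labels the tissue was skin, but their extraction text speaks of muscle. Markers of suprabasal keratinocytes had a median brightness percentile of 99.57 among all probes and skeletal muscle markers one of 98.83. Over all probes, taken as a description, log2 values of arrays within a group correlated at 0.984 to 0.994 for vanillin, 0.992 to 0.996 for IMQ and 0.989 to 0.992 for mock. Vanillin replicate 3 stood somewhat apart from the other vanillin arrays, at 0.984 and 0.985. Array medians lay between 629 and 631 intensity units, and precision is limited by the 3 arrays per group. Whether each array holds a separate mouse is not stated in the labels, and p-values therefore cover the spread among arrays alone, which may be technical.

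The signal of most of these probes was low. Trpv4 and Trpv1 had a mean log2 intensity at percentiles 8.87 and 8.94 of all probes, Trpa1, Trpv3 and Trpm8 at 27.4, 27.9 and 29.0, and Trpv2 and Trpv6 at 65.4 and 73.5. Brightness also depends on the probe, so levels are not compared between genes. As a measure of dim signal, a set chosen after the values were seen, the 592 probes of olfactory and vomeronasal receptor genes, which serve the nose, had a median log2 intensity of 6.96 and a 90th percentile of 9.64. Trpv2 and Trpv6 lay above that percentile, at means of 10.68 and 11.47. Trpv1 and Trpv4, at means of 5.96 and 5.95, were brighter than 29.2% and 29.1% of the nasal receptor probes and lay below their median, and Trpv3, Trpa1 and Trpm8 were brighter than 60.1%, 59.5% and 61.99% of them. Of those nasal receptor probes 38.3% were called between IMQ and mock skin, 28.4% between vanillin and IMQ skin, and 6.93% between vanillin and mock skin. The files do not show whether the signal of Trpv1, Trpv3, Trpv4, Trpa1 and Trpm8 lay above background, so their changes are given as differences in log2 intensity, with no fold. How far nonspecific signal enters these readings was not tested.

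**Figure D1:**
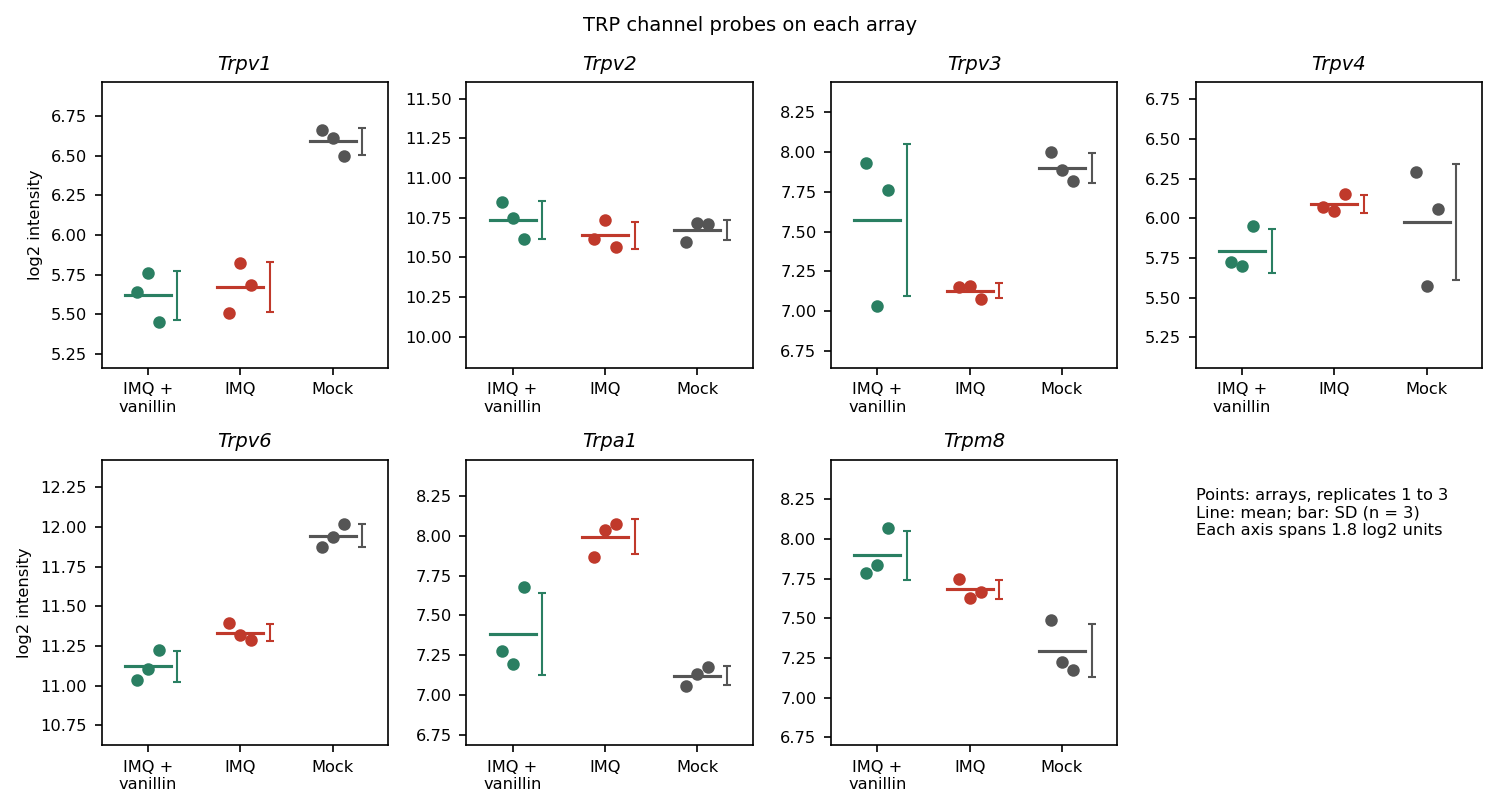
Log2 intensity (vertical axis) of the 7 TRP channel probes on each of the 9 arrays, by group (horizontal axis), with points for arrays, lines for group means and bars for the SD (n = 3). Trpv1 and Trpv6 are lower on all IMQ and vanillin arrays than on all mock arrays, and Trpa1 is highest on the 3 IMQ arrays. Trpv3 has 1 vanillin array, at 7.03, just below the IMQ values.

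IMQ against mock asked what imiquimod cream changed. The mock mice received Vaseline, so imiquimod and its cream base cannot be told apart. In IMQ skin Trpv1, Trpv3 and Trpv6 were lower and Trpa1 and Trpm8 higher, while Trpv2 and Trpv4 did not pass the test. A change passed the test where limma's p, adjusted over all probes, was under 0.05. The 5 of 7 called are read beside the 53.6% of all probes called in that comparison, 24% higher and 29.6% lower, so that the share of these channels is not far from that of the array. In vanillin against IMQ, which asked what the oral treatment changed under imiquimod, Trpa1 was the single gene of the 7 called, and it was lower, beside 41.2% of all probes, 24.3% higher and 17% lower. In vanillin against mock 3 of 7 were called, Trpv1 and Trpv6 lower and Trpm8 higher, beside 26.7% of all probes, 11.9% higher and 14.7% lower. The comparisons share arrays, so their values are not independent of each other. The median change over the 7 genes was -0.03 log2 units between IMQ and mock skin, -0.05 between vanillin and IMQ skin and -0.18 between vanillin and mock skin, beside -0.04, 0.03 and 0.01 over all probes.

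**Figure D2:**
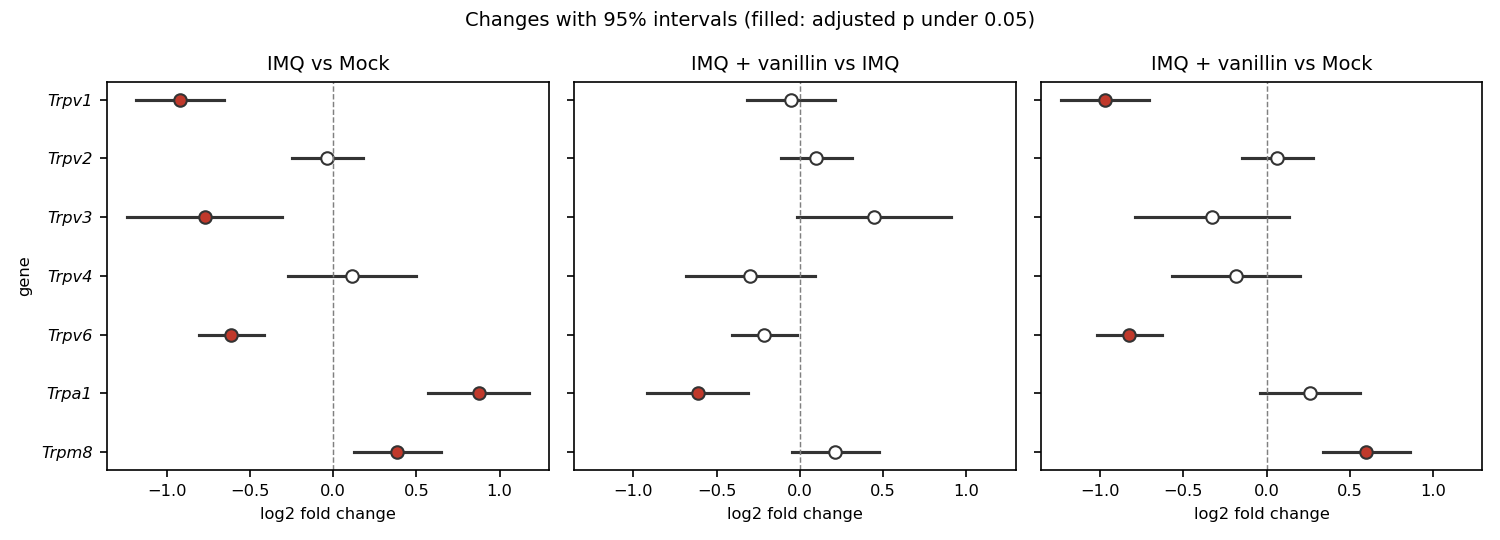
Log2 fold change (horizontal axis) of each gene (vertical axis) in the 3 comparisons, with 95% intervals from limma and filled points at an adjusted p under 0.05. Trpa1 at -0.61 is the only filled point for vanillin against IMQ, and Trpv1 at -0.92 and Trpa1 at 0.87 are the largest changes for IMQ against mock.

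Trpv1, the capsaicin and heat receptor, read 5.64, 5.76 and 5.45 log2 units on the vanillin arrays, 5.51, 5.82 and 5.69 on the IMQ arrays and 6.66, 6.61 and 6.50 on the mock arrays. All 6 imiquimod-treated arrays lay below all 3 mock arrays, and the vanillin and IMQ values overlapped. Its log2 intensity was lower in IMQ than in mock skin, with a difference of -0.92 ± 0.12 (SE, adjusted p = 0.000257, limma) between means of 5.67 and 6.59 that both lie below the median of the nasal receptor probes, and its difference in vanillin against mock skin was -0.97 ± 0.12 (SE, adjusted p = 0.000404, limma). Vanillin against IMQ gave -0.05 with a 95% interval of -0.32 to 0.21 (adjusted p = 0.737, limma), so a difference of either sign within that interval could not be resolved. In the order of levels, mock stood above both other groups, which did not differ beyond their spread.

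Trpv3, the warmth channel of keratinocytes, read 7.93, 7.03 and 7.76 log2 units on the vanillin arrays, 7.15, 7.16 and 7.07 on the IMQ arrays and 8.00, 7.88 and 7.82 on the mock arrays. The IMQ arrays lay below all mock arrays, while the vanillin arrays were split, with replicate 2 just below the IMQ arrays and the others near mock. The SD was 0.479 log2 units in vanillin, 0.047 in IMQ and 0.092 in mock skin. Trpv3 was lower in IMQ than in mock skin, at -0.77 ± 0.20 (SE, adjusted p = 0.0115, limma). Vanillin against IMQ gave 0.45 with a 95% interval of -0.02 to 0.91 (adjusted p = 0.111, limma), and vanillin against mock gave -0.33 with an interval of -0.79 to 0.14 (adjusted p = 0.282, limma). The change against mock was -0.055 without vanillin replicate 2 and -0.506 without vanillin replicate 1, and passed in neither case. Without vanillin replicate 2 the change in vanillin against IMQ was 0.72 and passed the test (adjusted p = 0.00591, limma), whereas over all alternatives it ran from 0.27 to 0.72 with adjusted p from 0.00591 to 0.32. Although Trpv3 lies next to Trpv1 on the chromosome, its vanillin values spanned both other groups and those of Trpv1 did not.

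Trpv4, an osmotic and warmth sensor of keratinocytes and other epithelia, read 5.73, 5.70 and 5.95 log2 units on the vanillin arrays, 6.07, 6.04 and 6.15 on the IMQ arrays and 6.29, 5.57 and 6.06 on the mock arrays. The mock arrays spread most and overlapped both other groups, and all vanillin arrays lay below all IMQ arrays. No comparison passed the test: vanillin against IMQ gave -0.30 (95% interval -0.68 to 0.09), vanillin against mock -0.18 (-0.57 to 0.20) and IMQ against mock 0.11 (-0.27 to 0.50). The mock arrays moved these values: without mock replicate 2 vanillin against mock was -0.383 and IMQ against mock -0.087, and without mock replicate 1 they were -0.025 and 0.272, none past the test. With only the vanillin and IMQ arrays in the fit, vanillin against IMQ passed at the same value (adjusted p = 0.0442, limma), and with array weights both vanillin against IMQ (-0.34, adjusted p = 0.0419) and IMQ against mock (0.41, adjusted p = 0.00443) passed.

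Trpv2, a channel of immune cells and large sensory neurons, read 10.85, 10.75 and 10.61 log2 units on the vanillin arrays, 10.62, 10.73 and 10.56 on the IMQ arrays and 10.60, 10.71 and 10.71 on the mock arrays. The 3 groups overlapped in every comparison. IMQ against mock gave -0.03 with a 95% interval of -0.25 to 0.18, vanillin against IMQ 0.10 (-0.12 to 0.31) and vanillin against mock 0.06 (-0.15 to 0.28). For this bright probe the intervals leave room only for changes below 0.32 log2 units on either side. Macrophage markers, the cell type in which Trpv2 is best known, had 4 members up, 4 down and 3 without a call among 11 for IMQ against mock, with summed intensities of 75287 to 80850 in vanillin, 82301 to 84859 in IMQ and 68656 to 77219 in mock skin. Of all probes 24% were higher and 29.6% lower for IMQ against mock.

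Trpv6, the epithelial calcium channel, read 11.03, 11.11 and 11.22 log2 units on the vanillin arrays, 11.39, 11.32 and 11.29 on the IMQ arrays and 11.88, 11.94 and 12.02 on the mock arrays. The 3 groups did not overlap and were ordered vanillin, IMQ, mock from low to high. It was 1.53-fold lower in IMQ than in mock skin, at -0.61 ± 0.09 (SE, adjusted p = 0.000456, limma), and 1.77-fold lower in vanillin than in mock skin, at -0.82 ± 0.09 (SE, adjusted p = 0.00019, limma). The step between vanillin and IMQ, -0.21 with a 95% interval of -0.41 to -0.02, did not pass after adjustment (adjusted p = 0.0778, limma). It passed with array weights (-0.30, adjusted p = 0.00368) and without vanillin replicate 3 (-0.26, adjusted p = 0.0335), and over all alternatives its adjusted p ran from 0.00368 to 0.23. Its closest relative Trpv5, the other calcium-selective TRPV channel and mainly a kidney gene, read 0.16 ± 0.09 (SE) for IMQ against mock and was not called in any comparison. The Trpv5 probe was dim, at brightness percentile 21.6. Its means of 7.145 in IMQ and 6.985 in mock skin lay near the nasal receptor median of 6.956. Whether the Trpv5 signal lay above background is not known.

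Trpa1, the receptor of mustard oil and other reactive irritants, read 7.28, 7.19 and 7.68 log2 units on the vanillin arrays, 7.87, 8.04 and 8.08 on the IMQ arrays and 7.05, 7.13 and 7.18 on the mock arrays. IMQ arrays lay above all others, vanillin replicate 3 came closest to them, and the vanillin arrays lay above the mock arrays by as little as 0.01. The gene was higher in IMQ than in mock skin, at 0.87 ± 0.13 (SE, adjusted p = 0.000674, limma). With vanillin it was lower than in IMQ skin, at -0.61 ± 0.13 (SE, adjusted p = 0.00776, limma). That call held under all 18 alternatives, at -0.76 to -0.52 and adjusted p from 0.000675 to 0.036. Vanillin against mock gave 0.26 with a 95% interval of -0.04 to 0.56 (adjusted p = 0.192, limma), and 0.113 without vanillin replicate 3, the array that stood apart. The opposite signs of the first 2 changes rest on the same IMQ arrays.

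Trpm8, the cold and menthol receptor, read 7.79, 7.83 and 8.07 log2 units on the vanillin arrays, 7.75, 7.63 and 7.67 on the IMQ arrays and 7.49, 7.22 and 7.18 on the mock arrays. The groups did not overlap and were ordered vanillin, IMQ, mock from high to low, the reverse of Trpv6. It was higher in vanillin than in mock skin, at 0.60 ± 0.12 (SE, adjusted p = 0.00496, limma), and higher in IMQ than in mock skin, at 0.39 ± 0.12 (SE, adjusted p = 0.0197, limma). The IMQ call was lost without mock replicate 2 or 3 or without IMQ replicate 1 or 3, at adjusted p from 0.0531 to 0.0729 and changes from 0.33 to 0.39. Vanillin against IMQ gave 0.21 with a 95% interval of -0.05 to 0.48 (adjusted p = 0.164, limma), and 0.127 without vanillin replicate 3.

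Groups of 3 arrays did not overlap for 5 of the 7 genes in IMQ against mock, 4 in vanillin against IMQ and 4 in vanillin against mock, beside 68%, 58.5% and 37.8% of all probes. In these whole-tissue samples fewer cells of a type and less RNA per cell cannot be told apart. The marker counts that follow are read beside the shares of all probes called. Those were 24% higher and 29.6% lower for IMQ against mock, and 24.3% and 17% for vanillin against IMQ. Markers of sensory nerve, the textbook source of Trpv1, Trpa1 and Trpm8, had 7 members up, 5 down and 10 without a call among 22 for IMQ against mock and 6 up, 4 down and 12 without a call for vanillin against IMQ. Their summed intensities ran from 11950 to 13171 in vanillin, 13468 to 13868 in IMQ and 12760 to 14325 in mock skin. The share of nerve markers called is near that of all probes in both comparisons. The sodium channels of pain neurons Scn9a and Scn10a lay at brightness percentiles 1.10 and 5.03. Over the 22 nerve markers the percentiles ran from 1.10 to 71.7, with a median of 35.3. The peptide gene Calca, at 0.76 ± 0.10, and the neuronal hydrolase gene Uchl1, at 1.89 ± 0.30, rose in IMQ skin. The receptor genes Ret (-1.41 ± 0.10) and Ntrk3 (-1.65 ± 0.15) and the gene Piezo2 (-0.95 ± 0.09) fell. The Calca probe was dim, at brightness percentile 14.5. With vanillin against IMQ, where 6 nerve markers rose and 4 fell, Uchl1 fell, at -2.07 ± 0.30 (SE, adjusted p = 0.00185, limma). Ntrk2 (1.03 ± 0.15), Ntrk3 (0.86 ± 0.15) and Piezo2 (0.57 ± 0.09) rose in that comparison. Schwann cell markers gave 0 higher and 5 lower of 5 for IMQ against mock, with sums of 25500 to 28704 in vanillin, 23944 to 24500 in IMQ and 42029 to 44606 in mock skin. Basal keratinocyte markers had 2 members up, 4 down and 2 without a call among 8, and suprabasal markers 5 up, 1 down and 3 without a call of 9, with suprabasal sums of 1310996 to 1421883 in vanillin, 1315698 to 1371890 in IMQ and 835493 to 892255 in mock skin. Hair follicle markers had 1 member up, 10 down and 5 without a call among 16, with sums of 1264783 to 1375550, 1382469 to 1411842 and 1672743 to 1779559 in vanillin, IMQ and mock skin. Beside the Trpa1 call for vanillin against IMQ, skeletal muscle markers had 7 members up and 0 down of 8, adipocyte markers 8 up and 1 down of 9 and endothelium markers 5 up and 0 down of 8 in that comparison. Summed muscle intensities ran from 402848 to 424185 in vanillin, 316281 to 323458 in IMQ and 403597 to 447171 in mock skin, adipocyte sums from 263532 to 275764, 237276 to 240016 and 349739 to 371029, and endothelium sums from 18064 to 18910, 14151 to 14697 and 22551 to 23470, in the same order of groups. The part of these cell types in the changes of the TRP genes was not tested.

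By likeness of pattern over the 9 arrays, among 16635 named genes, the probes most like Trpv1 were those of Serpind1 (Pearson r = 0.987) and Psmb4 (0.982). For Trpv6 they were Rab15 (0.997) and Ndufa8 (0.996), for Trpa1 Efcab10 (0.992), with an antisense transcript second that was not matched by position and is not given, and for Trpm8 Atp6v0b (0.971) and Mien1 (0.968). Trpv3 was followed by Fam98a (0.965) and Iqcd (0.959), Trpv4 by Moxd2 (0.944) and Spz1 (0.871), and Trpv2 by Tcp11l2 (0.908) and Mcm10 (0.900). An r above 0.95 was reached by 408 genes for Trpa1, 287 for Trpv6, 222 for Trpv1, 25 for Trpm8, 4 for Trpv3 and 0 for Trpv2 and Trpv4. The arrays share their 3 groups, so the points are not independent of the groups, and no p is given.

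Of 20 other TRP channel genes measured, 8 were higher, 4 lower and 8 without a call for IMQ against mock (median 0.17), beside 24% higher and 29.6% lower of all probes. For vanillin against IMQ 2 were up, 9 down and 9 without a call (median -0.25), beside 24.3% and 17% of all probes. The share called for IMQ against mock is near that of all probes, so the count is a description of the list only. Trpc1, a channel linked to store-operated calcium entry, read 6.03, 6.25 and 6.27 log2 units on the vanillin arrays, 7.85, 7.85 and 7.82 on the IMQ arrays and 5.95, 5.85 and 6.36 on the mock arrays. Like Trpa1, it was highest on all IMQ arrays, with a change of 1.79 ± 0.14 between IMQ and mock skin (SE, adjusted p = 2.04e-05, limma) and of -1.66 ± 0.14 between vanillin and IMQ skin (SE, adjusted p = 0.000439, limma). Trpc7 gave 0.84 ± 0.10 and -0.60 ± 0.10 in the same comparisons, and the lysosomal channel gene Mcoln3 gave 0.93 ± 0.13 and -1.28 ± 0.13 (SE). Group means of Trpc7 were 7.199 with vanillin, 7.803 in IMQ and 6.966 in mock skin, whereas those of Mcoln3 were 9.21, 10.49 and 9.56, lowest with vanillin. Trpc1 and Trpc7 were dim, at brightness percentiles 17.0 and 25.2. The vanillin and mock means of Trpc1, 6.18 and 6.05, lay below the nasal receptor median of 6.96. Whether the signal of Trpc1 or Trpc7 lay above background is not known. Vanillin against mock was not called for Trpc1, Trpc7 or Mcoln3. Trpm6, a magnesium channel, was lowest with vanillin, as Trpv6 was, at -1.28 ± 0.11 in IMQ and -1.92 ± 0.11 in vanillin skin, each against mock. Trpm1, a channel of melanocytes, fell in IMQ skin, with a log2 fold change of -1.59, its second probe reading -1.37, beside melanocyte markers that were lower for 5 of 5, with sums of 67451 to 71022 in vanillin, 67953 to 68685 in IMQ and 163270 to 166883 in mock skin. For vanillin against IMQ both Trpm1 probes were higher, at 0.505 and 0.760 (adjusted p = 0.00502 and 0.00422, limma). Melanocyte markers had 3 up, 1 down and 1 without a call of 5 in that comparison, and their sums overlapped.

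**Figure D3:**
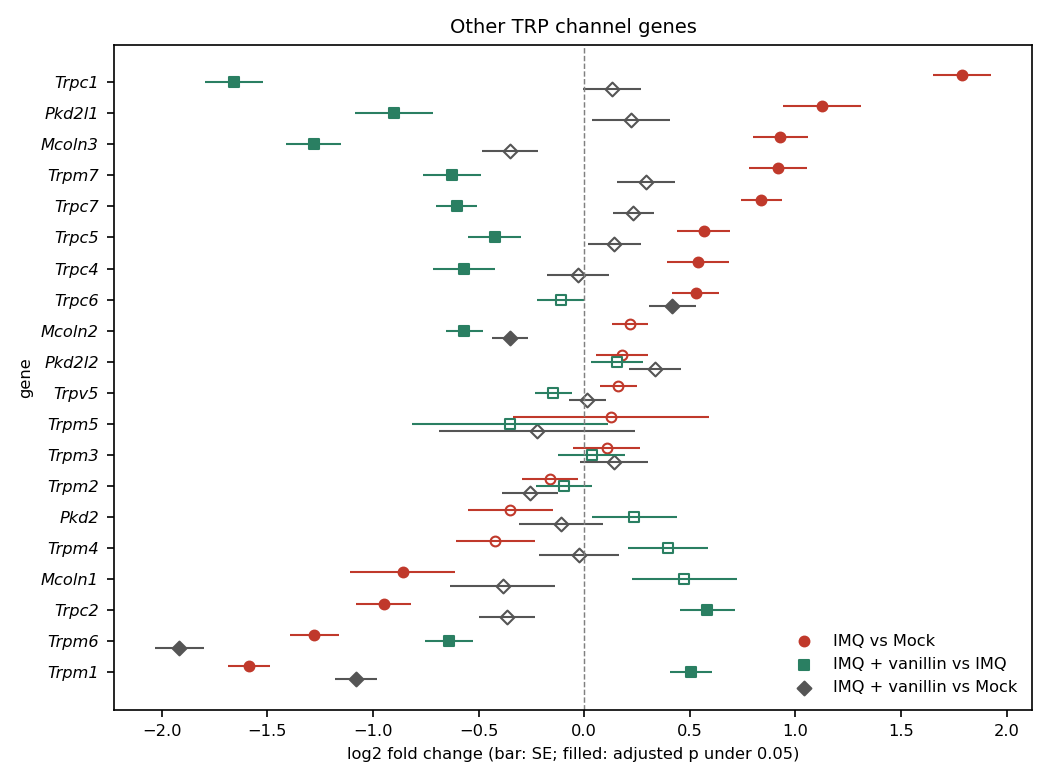
Log2 fold change (horizontal axis) of the leading probe of 20 other TRP channel genes (vertical axis) in the 3 comparisons, with bars for the SE and filled markers at an adjusted p under 0.05. Trpc1 has the largest rise for IMQ against mock, at 1.79, and Trpm1 the largest fall, at -1.59, among these 20 genes. The Trpc1 probe is dim, at brightness percentile 17.0.

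Of 22 measured genes that sensitise TRPV1 and TRPA1, 4 were higher, 9 lower and 9 without a call for IMQ against mock (median -0.21), beside 24% higher and 29.6% lower of all probes. For vanillin against IMQ 11 were up, 3 down and 8 without a call (median 0.38), beside 24.3% and 17% of all probes. For IMQ against mock the share called is again near that of all probes. The prostaglandin synthase Ptgs1 rose by 1.25 ± 0.09 in IMQ skin, while the prostaglandin receptor Ptger4, at -2.04 ± 0.11, and Prkca, a kinase that phosphorylates TRPV1, at -0.58 ± 0.08, fell. With vanillin against IMQ, Prkce, another kinase of TRPV1, rose by 0.88 ± 0.13 and the itch receptor Il31ra by 0.88 ± 0.14 (SE, adjusted p = 0.00237, limma). Prkce and Il31ra had been lower in IMQ than in mock skin, at -0.85 ± 0.13 and -0.83 ± 0.14. Vanillin against mock, at 0.03 and 0.04, was not called for either gene. Ptgs1 was among the 3 genes that fell with vanillin against IMQ, at -0.45 ± 0.09. The inducible Ptgs2 was higher in vanillin than in mock skin, at 1.33 ± 0.12 (SE, adjusted p = 8.93e-05, limma). It was also higher in IMQ than in mock skin, at 0.72 ± 0.12, and in vanillin than in IMQ skin, at 0.61 ± 0.12.

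The list of endovanilloids, lipids that act on TRPV1, held enzymes that make or degrade them and the cannabinoid receptor genes Cnr1 and Cnr2. Of its 15 measured genes 6 were higher, 6 lower and 3 without a call for IMQ against mock (median -0.20), beside 24% higher and 29.6% lower of all probes. Neither receptor gene was called in that comparison (adjusted p = 0.275 for Cnr1 and 0.0876 for Cnr2, limma). Faah, which degrades the TRPV1 ligand anandamide, rose by 1.22 ± 0.08 in IMQ skin (SE, adjusted p = 8.26e-06, limma) and fell with vanillin against IMQ by 0.42 on the log2 scale (adjusted p = 0.00407, limma). The epidermal lipoxygenase Aloxe3 rose by 1.76 ± 0.08 and Alox12 fell, at -0.84 ± 0.09, in IMQ skin. Napepld, which makes anandamide, was lower than in mock skin in IMQ skin, at -0.62 ± 0.12, and in vanillin skin, at -0.67 ± 0.12. Its change for vanillin against IMQ, -0.05, was not called (adjusted p = 0.755, limma). For vanillin against IMQ the counts were 3 up, 3 down and 9 without a call (median 0.07), beside 24.3% and 17% of all probes, and Mgll, which degrades 2-arachidonoylglycerol, fell by 1.11.

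TRPV3 works in keratinocytes in a unit with the EGF receptor and its ligand TGF-alpha, which feeds the transglutaminases of the cornified envelope. The list for that unit also held other EGF receptor ligands, the proteases Adam10 and Adam17 that shed them, and the differentiation markers Krt1 and Lor. Of its 11 measured genes 5 were higher, 3 lower and 3 without a call for IMQ against mock (median 0.30), beside 24% and 29.6% of all probes, and 2 up, 1 down and 8 without a call for vanillin against IMQ (median 0.04), beside 24.3% and 17%. The largest change of the list was that of Krt1, a suprabasal keratin, at 3.43 ± 0.12 for IMQ against mock (SE, adjusted p = 4.35e-07, limma), while Lor, at 0.24 ± 0.11, was not called. The ligand gene Tgfa fell in IMQ skin as Trpv3 did, at -1.07 ± 0.14 (SE, adjusted p = 0.000271, limma), while the ligands Ereg, at 2.64 ± 0.11, and Hbegf, at 0.98 ± 0.10, rose. Ereg fell with vanillin against IMQ, at -1.01 ± 0.11, and the transglutaminase gene Tgm3 rose, at 0.88 ± 0.18. Tgm3 had been lower in IMQ than in mock skin, at -0.95 ± 0.18. Its change for vanillin against mock, -0.07, was not called (adjusted p = 0.824, limma).

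**Figure D4:**
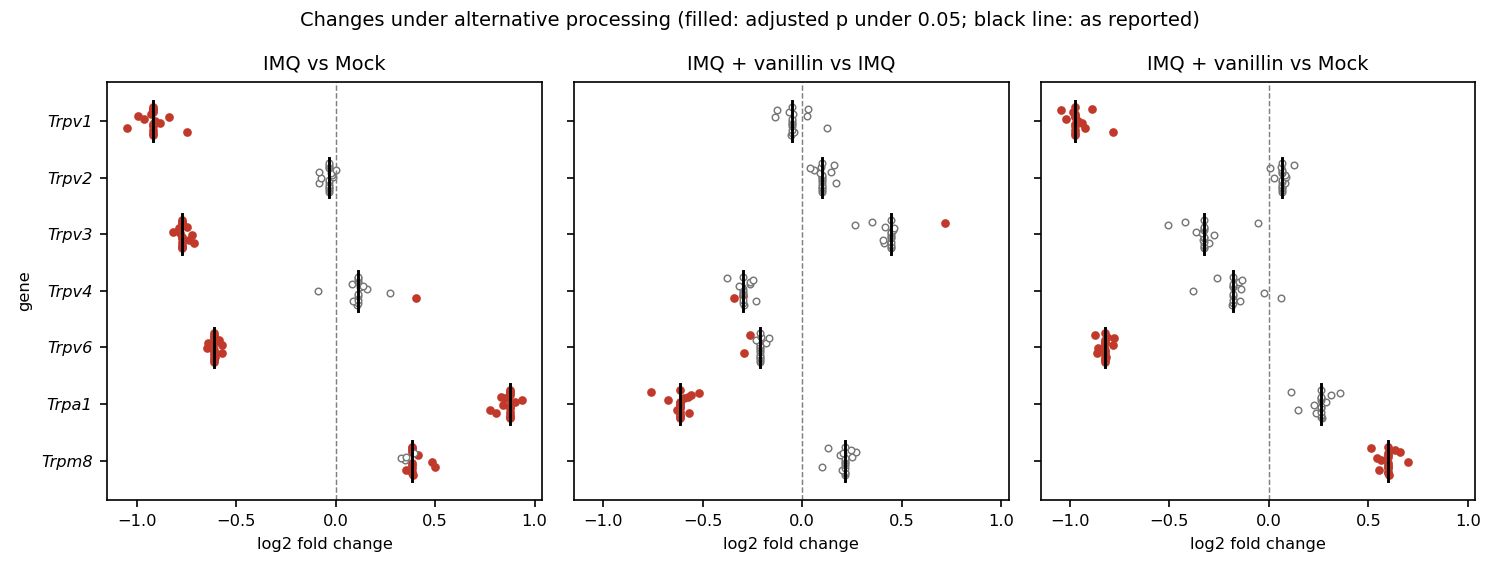
Log2 fold change (horizontal axis) of each gene (vertical axis) under every alternative setting, filled at an adjusted p under 0.05, with a black line at the reported value. For vanillin against IMQ the points of Trpa1 are all filled, between -0.76 and -0.52, while those of Trpv3 reach 0.72 with 1 filled.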

How the data were processed

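Per the labels' protocols, Cy5-labelled RNA from 9 samples was run on one-colour arrays. The deposited table holds linear probe intensities, already equalised between arrays: sorted values above 100 differed by at most 3.42% between columns. In the submitters' processing notes limma stands without a version. Neither the scanner nor the background step nor filters are given there. Equalised intensities cannot show a change of total signal.

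Values under 1 were set to 1 and log2 was taken. Group means were estimated per probe from all 9 arrays with limma 3.58.1 under R 4.3.3, tested two-sided and adjusted by Benjamini-Hochberg over 26423 probes. The procedure was tested on simulated data. The annotation gave 20377 probes 1 symbol, 0 several and 6046 none. Through RefSeq names, 18213 symbols were current, 2126 were updated and 38 kept, giving 17742 genes. The files give no detection calls.

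All 7 TRP genes are named. Of each list up to 4 genes with the smallest p in a comparison were eligible, and a few defining markers were added after their values were seen. The brightest probe stood for a gene that had several. The genes and the 18 lists were chosen with earlier results of these data known. Lists are described by counts and medians. Alternatives changed normalization, dim-probe filter, offset, spread prior, array weights, arrays fitted, replicate block and probe averaging, and left out each array in turn.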

Additional observations from a re-analysis of the deposited data

How the results depend on the processing

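The 21 changes of the 7 genes were recomputed under 17 or 18 alternatives each, giving 356 values of the same direction and side of the threshold, 4 that lost and 6 that gained a call, and 6 of opposite sign. The last, none of them past the test, were the vanillin against IMQ change of Trpv1 with array weights (0.122) and with 1 array left out (-0.137 to 0.030), the vanillin against mock change of Trpv4 with array weights (0.061), and with 1 array left out the IMQ against mock changes of Trpv4 (-0.087 to 0.272) and of Trpv2 (-0.082 to 0.003). For vanillin against IMQ the count of TRP genes called was 3 with array weights and 2 with only those groups fitted, and 1 to 2 with 1 array left out. The count of all probes called there was 10898, and 6576 to 12805 with 1 array left out, the lowest without IMQ replicate 3 and 6923 without IMQ replicate 1. The cause was not tested. Leaving out the dimmest 25% of probes removed Trpv1 and Trpv4. Replicate numbers are shared by title, but only 2 of 9 same-numbered pairs had deviations correlated above 0.1 (-0.265 to 0.222), and the best match in another group had the array's own number in 6 of 18 cases. The replicate block gave 5, 1 and 3 TRP genes called for IMQ against mock, vanillin against IMQ and vanillin against mock, and 13609, 9968 and 6224 of all probes.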

Other observations

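Genes of calcium handling that work beside TRP channels had 3 members up, 9 down and 8 without a call among 20 for IMQ against mock (median -0.29) and 5 up, 1 down and 14 without a call for vanillin against IMQ (median 0.14), beside 24% higher and 29.6% lower of all probes in the first comparison and 24.3% and 17% in the second. Orai2, a pore subunit of store-operated calcium channels measured by 1 probe, had a mean log2 intensity of 14.13 in IMQ and 10.03 in mock skin, a change of 4.10 ± 0.12 (SE, adjusted p = 1.18e-07, limma), and fell with vanillin against IMQ, at -0.54 ± 0.12. Its relative Orai3 moved the other way, at -1.01 ± 0.14 in IMQ against mock skin and 0.81 ± 0.14 in vanillin against IMQ skin. Orai1 rose by 0.64 ± 0.09 with vanillin against IMQ, and the calcium release channel gene Itpr2 rose by 1.06 ± 0.10 in IMQ skin.

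Genes of the cell junctions and water channels linked to TRPV4 had 2 members up, 7 down and 2 without a call among 11 for IMQ against mock (median -0.32) and 5 up, 2 down and 4 without a call for vanillin against IMQ (median 0.17), beside the same shares of all probes. The water channel gene Aqp5 rose by 3.13 ± 0.21 in IMQ skin and the E-cadherin gene Cdh1 by 1.43 ± 0.17, while the tight junction genes Ocln, at -0.91 ± 0.11, and Cldn1, at -0.92 ± 0.11, fell. With vanillin against IMQ, Cdh1 fell, at -1.22 ± 0.17, and Cldn1 rose, at 0.77 ± 0.11. Of other cell type markers, for IMQ against mock, mast cell markers had 1 member up, 4 down and 4 without a call among 9, skeletal muscle 0, 6 and 2 of 8, adipocyte 0, 8 and 1 of 9, fibroblast 2, 5 and 1 of 8, and endothelium 0, 6 and 2 of 8. For vanillin against IMQ the counts were 2 up, 1 down and 6 without a call for mast cells, 7, 0 and 1 for skeletal muscle, 8, 1 and 0 for adipocytes, 3, 2 and 3 for fibroblasts, and 5, 0 and 3 for endothelium. Of all probes 24% were higher and 29.6% lower for IMQ against mock, and 24.3% and 17% for vanillin against IMQ. The share of mast cell markers called for IMQ against mock is near that of all probes.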
